A study of Homo sapiens with 4 samples.

Results

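The axon guidance genes measured here were 36 genes of HepG2 cells, found by name: semaphorins (SEMA), plexins (PLXN), neuropilins, ephrins (EFNA, EFNB), Eph receptors (EPHA, EPHB), slits, ROBO receptors, netrins, UNC5 receptors and neogenin (NEO1). They were 36 of the 8727 genes held by the authors' deposited table, which compares 2 libraries of HepG2, a human line from a liver tumour that the labels call hepatoblastoma, given isoginkgetin (20 µM for 24 h) with 2 libraries given the solvent DMSO, whose time the labels do not state separately. Isoginkgetin, a biflavonoid from plants, is known to inhibit the splicing of pre-mRNA. Polyadenylated RNA was sequenced without strand. Every gene in the table has an adjusted p under 0.05, so the members were chosen in part by this same comparison, and their values are a description. Per gene the table gives the mean normalized count over all libraries, the log2 fold change, its standard error (SE) and p-values, with no value per library, so the depth of a library and the spread between libraries are unknown here. The group in the numerator is not named. Higher and lower mean higher and lower in isoginkgetin than in DMSO, on the assumption that the treatment was set over its control, and every direction turns if it was not. The labels do not say whether replicates were separate cultures, so the p-values may measure technical spread.

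Of the 36 genes, 3 match by name only: UNC50, a Golgi protein unrelated to netrin receptors, UNC5CL, a death-domain protein that resembles UNC5 receptors, and SEMA3B-AS1, a non-coding transcript beside SEMA3B. The other 33 are guidance ligands or receptors. RefSeq's names (GRCh38.p14) hold 91 symbols that follow the same pattern, 72 of them protein-coding, and the 55 symbols without a row were not analysed here. The rows held 13 of 20 semaphorins, 8 of 9 plexins and 1 of 2 neuropilins. They held 2 of 8 ephrins, 3 of 14 Eph receptors, 1 of 3 slits, 2 of 4 ROBO receptors, 1 of 4 UNC5 receptors and 1 of 4 netrins. A row means an adjusted p under 0.05, which 43.6% of all 20024 genes tested reached, the number that the authors' p-values imply, and nothing is read from these counts. The genes nearest the threshold were SEMA7A (adjusted p 0.0438), PLXNA1 (0.0344) and NRP2 (0.0193) per the authors' deposited table, and genes beyond it were not analysed here.

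Guidance cues are extracellular signals first known for steering growing axons by pulling the cytoskeleton of the growth cone toward or away from a source. Semaphorins are secreted or membrane-bound ligands that act through plexins, with neuropilins as co-receptors for the secreted class. Ephrins and Eph receptors signal between touching cells in both directions, netrins act through DCC, neogenin and UNC5 receptors, and slits act through ROBO receptors. In epithelia and tumours, liver included, the same proteins take part in cell adhesion, migration and vessel growth.

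The 250 bases before the RefSeq start are shown for some of these genes (5′ to 3′ along the gene, GRCh38.p14). They are SEMA4G and SEMA3B, the lowest semaphorins at a mean normalized count of 1000 or more, PLXND1, the lowest plexin at that level, EPHA1, the lowest Eph receptor, and the higher gene SEMA4D. The genes were chosen after their values were seen, and whether these bases bear on direction was not tested. Capitals mark the GC box GGGCGG on either strand, the letters bound by SP1-type factors.
SEMA4G (chr10:100969254-100969503, plus strand): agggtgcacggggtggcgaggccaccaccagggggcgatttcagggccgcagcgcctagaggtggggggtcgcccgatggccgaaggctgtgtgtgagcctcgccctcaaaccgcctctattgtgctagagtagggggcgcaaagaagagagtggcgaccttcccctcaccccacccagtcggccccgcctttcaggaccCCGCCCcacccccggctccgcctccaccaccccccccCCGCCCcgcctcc
SEMA3B (chr3:50272869-50273118, plus strand): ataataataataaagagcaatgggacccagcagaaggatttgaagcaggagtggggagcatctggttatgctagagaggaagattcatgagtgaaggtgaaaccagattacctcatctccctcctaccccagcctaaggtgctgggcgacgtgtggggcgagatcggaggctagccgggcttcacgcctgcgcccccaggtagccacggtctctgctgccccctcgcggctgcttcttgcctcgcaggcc
PLXND1 (chr3:129606677-129606926, minus strand): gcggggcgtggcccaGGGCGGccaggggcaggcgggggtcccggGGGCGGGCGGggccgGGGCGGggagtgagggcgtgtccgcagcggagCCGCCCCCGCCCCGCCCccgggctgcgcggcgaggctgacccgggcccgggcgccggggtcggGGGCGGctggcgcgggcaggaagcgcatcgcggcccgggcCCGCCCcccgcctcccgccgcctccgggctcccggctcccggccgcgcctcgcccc
EPHA1 (chr7:143408857-143409106, minus strand): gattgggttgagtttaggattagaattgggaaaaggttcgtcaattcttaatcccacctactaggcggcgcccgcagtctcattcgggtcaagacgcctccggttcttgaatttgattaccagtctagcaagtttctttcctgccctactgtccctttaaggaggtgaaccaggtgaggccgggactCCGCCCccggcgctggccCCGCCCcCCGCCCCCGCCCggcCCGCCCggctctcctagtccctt
SEMA4D (chr9:89495657-89495906, minus strand): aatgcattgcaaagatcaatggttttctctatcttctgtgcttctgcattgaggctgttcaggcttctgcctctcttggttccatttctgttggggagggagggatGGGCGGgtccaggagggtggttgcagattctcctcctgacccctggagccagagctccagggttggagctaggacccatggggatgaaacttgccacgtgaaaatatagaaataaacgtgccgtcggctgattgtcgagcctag

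PLXND1 held 9 GC boxes, overlapping ones counted each, and 88.8% G or C. EPHA1 held 5, SEMA4G 2, SEMA4D 1 and the SEMA3B window shown none. A RefSeq start matched 32 of the 36 genes, all but SEMA3A, SEMA6A, SEMA6B and UNC5B. Of the 29 guidance genes matched, 25 held the GC box, against 42.3% of all 27303 RefSeq starts and 67.1% of the 6057 starts matched to genes in the table. The box was in 19 of 23 lower and in 6 of 6 higher genes, against 68.8% of lower and 65.4% of higher starts in the table. The TATA letters TATAAA were in none of the 29, against 11.1% of all starts and 5.55% of those in the table. The windows of the 29 were also richer in G or C, with a median of 70%, against 64.8% for starts in the table and 58% for all starts. The shares were not adjusted for base composition, and its part in them was not tested. The letters ACGTG, the core of hypoxia response elements, were in 1 of 23 lower and 2 of 6 higher genes. In the table they were in 24.1% of all starts, 20.9% of the lower and 27.2% of the higher ones. SEMA4D is among the 2 higher genes, and its window also holds the palindrome CACGTG, which contains those letters. Among the 29 starts CACGTG was in 2, against 9.01% of starts in the table, the TEAD letters GGAATG in 1 (9.43%), the cAMP response element TGACGTCA in 1 (3.05%) and the ATF4-type element TTGCATCA in none (0.413%), each searched on both strands. The windows come from 1 start per gene, and a gene can have others. The SEMA3B window begins at chr3:50272869. That of SEMA3B-AS1, on the minus strand and with 4 GC boxes, begins at chr3:50267621 and runs toward lower coordinates. GENCODE 29 sets the starts of these genes 186 bases apart, so the SEMA3B window appears to belong to another start than the GENCODE one. The lack of a GC box holds only for the window shown.

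Guidance genes were mostly lower after isoginkgetin. Of all 36 rows, 28 were lower and 8 higher. Of all genes tested, 43.6% passed the threshold, 21.1% lower and 22.4% higher. Since the members were taken from genes past that threshold, nothing is read from their number. Among the 33 ligands and receptors 26 were lower and 7 higher, with a median log2 fold change of −0.43. Over all genes listed, 48.5% of genes were lower and the median was 0.21. By role, 13 of 17 ligands and 13 of 16 receptors were lower. By at least 2-fold, 11 of the 33 were lower and 4 higher. The like shares were 17.1% lower and 14.4% higher among the genes of the table, to which the 33 belong, and 7.43% and 6.26% among all genes tested.

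**Figure D1:**
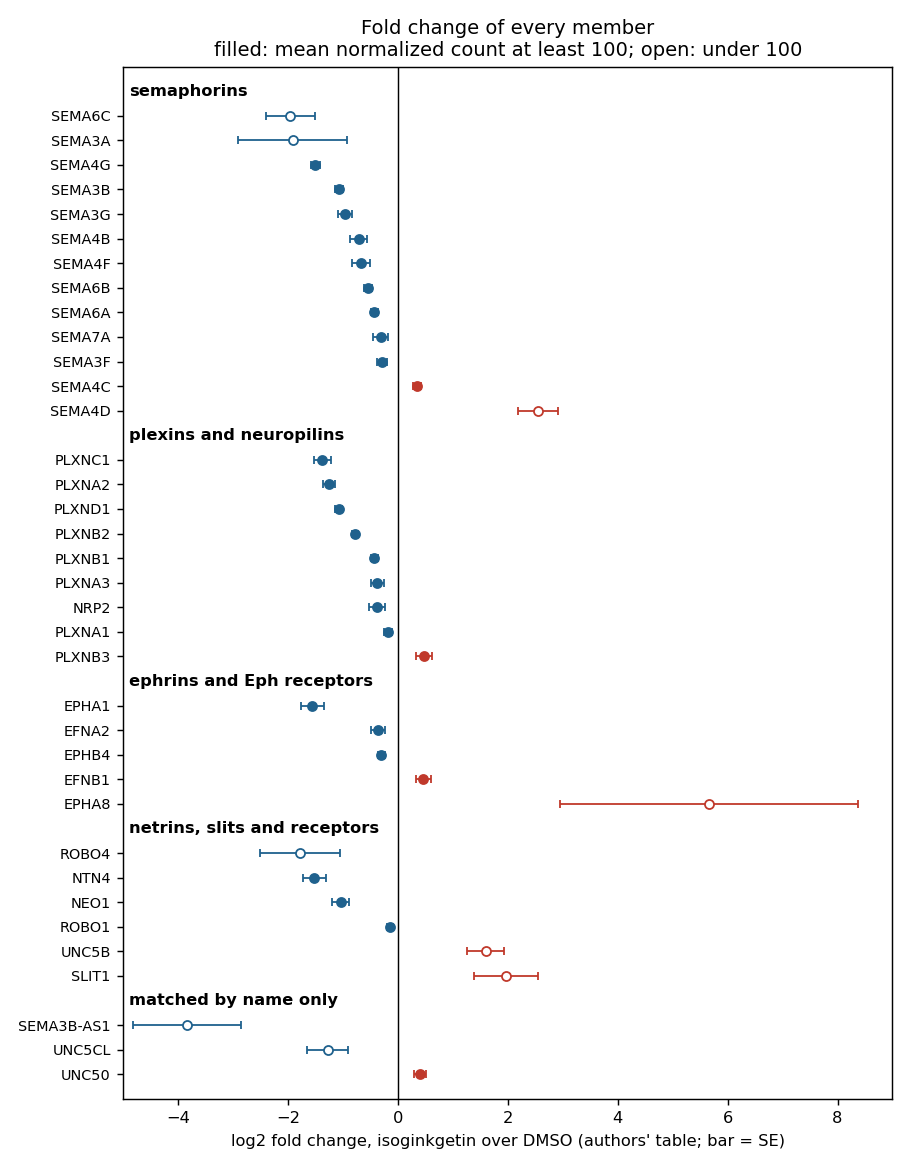
Log2 fold change of each of the 36 genes (x axis, isoginkgetin over DMSO) with its SE from the authors' deposited table, grouped by family, with filled points at a mean normalized count of 100 or more and open points under it. Lower genes (blue) number 28 and higher genes (red) 8, and all 4 ligands or receptors that were at least 2-fold higher are open points.

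Direction differed with level, a difference that was not tested. At a mean normalized count of 100 or more, 23 of 26 guidance genes were lower, and the 3 higher ones, PLXNB3, EFNB1 and SEMA4C, changed by less than 2-fold. Under 100, 3 of 7 were lower and 4 higher, all by at least 2-fold. Of all genes in the table under 100, 32.3% were at least 2-fold lower and 46.5% at least 2-fold higher. Only genes past the threshold have a row, so imprecise genes appear mostly with large changes, and nothing is read from these sizes. Over the whole table the share of lower genes was 50.1% at 100 or more and 41.5% under it. The median SE was 0.12 for guidance genes at 100 or more and 0.58 under it, so the 4 genes that were at least 2-fold higher are also among the less precise ones. The deposited fold changes look shrunken toward 0 at low counts, so those of low genes may not be plain ratios of means. The absolute fold change over its SE, divided by the normal deviate of the gene's p-value, is near 1 for an unshrunken value and was 0.569 for EPHA8, 0.651 for SEMA3A and 0.953 for SEMA4D.

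**Figure D2:**
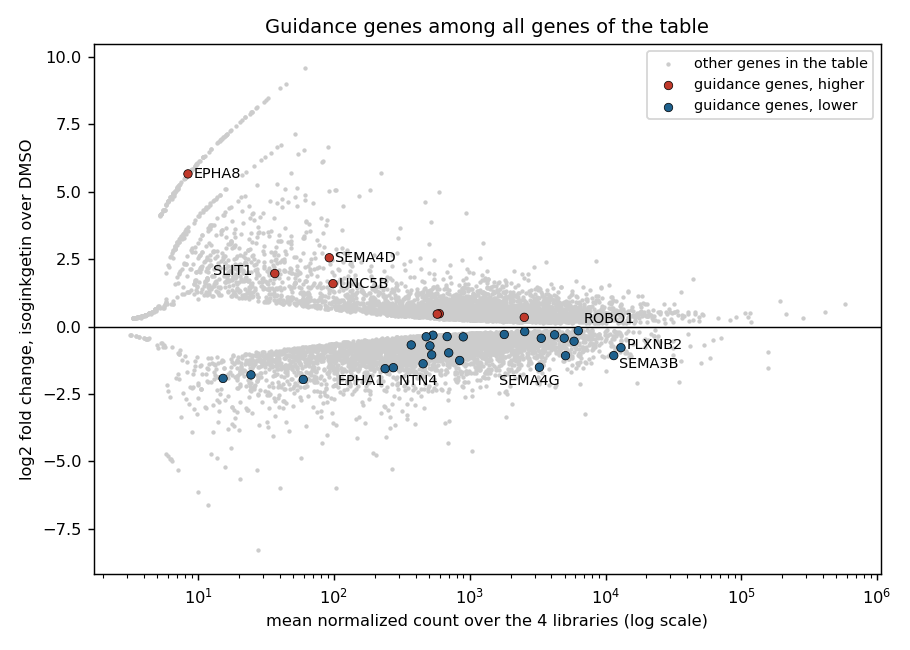
Log2 fold change (y axis) against mean normalized count (x axis, log scale) of the 33 guidance genes (red higher, blue lower) over all genes of the authors' deposited table (grey). The guidance genes with the highest counts, PLXNB2 and SEMA3B, lie below 0, and SEMA4D, UNC5B, SLIT1 and EPHA8 stand above 0 at counts under 100.

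The secreted class 3 semaphorins were all lower, 4 of 4 in the table. SEMA3B, studied as a candidate tumour suppressor, had a mean normalized count of 11503 and stood at −1.08 on the log2 scale (SE 0.07, adjusted p 4.11e-56) per the authors' deposited table. With groups of equal size, this mean and fold imply 15601 normalized counts in DMSO and 7405 in isoginkgetin. Such implied levels are arithmetic on the deposited mean and fold, not library values, have no spread and are least certain for genes under 100 counts. SEMA3G, a ligand that acts through NRP2, was at −0.97 (SE 0.13) per the authors' deposited table, with implied levels of 928.2 and 472.6. Of the other NRP2 ligands, SEMA3F changed little, at −0.29 (SE 0.09, adjusted p 0.00244) per the authors' deposited table. SEMA3A, the classic repellent of sensory axons, was at −1.92 (SE 0.998), with a mean normalized count of only 15.3 per the authors' deposited table. Values in this class were thus precise for SEMA3B, SEMA3G and SEMA3F and uncertain for SEMA3A.

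SEMA3B-AS1, the non-coding neighbour of SEMA3B, was lower as well, at −3.84 (SE 0.99, mean normalized count 20.1) per the authors' deposited table. In GENCODE 29 the genes lie on opposite strands, 186 bases apart and without overlap. Without strand in the reads, transcripts running past an annotated start could not be told apart from the neighbour.

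The membrane-bound class 4 semaphorins went both ways, 3 lower and 2 higher. SEMA4G, a ligand of plexin-B2, was lowest at −1.51 (SE 0.08, adjusted p 2.2e-75) per the authors' deposited table, or 2.84-fold lower. Its implied level went from 4824 in DMSO to 1697 in isoginkgetin. GENCODE 29 has 1170 of its exon bases shared with MRPL43 on the other strand, and MRPL43 was not analysed here. SEMA4B and SEMA4F, both less studied members, were at −0.72 (SE 0.16) and −0.68 (SE 0.17) per the authors' deposited table. SEMA4C, also a plexin-B2 ligand, was higher by a small amount, at 0.34 (SE 0.08) and a mean normalized count of 2522 per the authors' deposited table. SEMA4D, known as CD100 on lymphocytes and as the ligand of plexin-B1, was at 2.55 (SE 0.37, adjusted p 2.77e-12) per the authors' deposited table, the highest value of the semaphorins. Its mean normalized count was 92.4, and per kilobase of exon it reached only 6.53, against 409.6 for SEMA4C and 620.7 for SEMA4G. SEMA4D made up 0.119% of the summed mean count per kilobase of the 13 semaphorins.

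Class 6 semaphorins, membrane proteins that bind plexin-A receptors, were lower in 3 of 3 cases. SEMA6B was at −0.55 (SE 0.08), SEMA6A at −0.43 (SE 0.07) and SEMA6C at −1.96 (SE 0.44) per the authors' deposited table. The mean normalized count of SEMA6C was 59.5, against 5866 for SEMA6B and 3363 for SEMA6A per the authors' deposited table. SEMA7A, which is held to the membrane by a lipid anchor and binds plexin-C1 and integrins, was at −0.32 (SE 0.14) per the authors' deposited table. Per kilobase, SEMA3B made up 36.5% of the summed semaphorin mean count, SEMA6B 24.3% and SEMA4G 11.4%. With implied levels, the sum over the 13 semaphorins was 6852 counts per kilobase in DMSO and 4078 in isoginkgetin, a decrease of 40.5%, or an increase of 68.0% if the order of the groups was turned. That sum covers only semaphorins past the threshold of this same comparison and leaves out those that were not analysed here.

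Of the plexins, 7 of 8 were lower, and their mean normalized counts ran from 453.6 (PLXNC1) to 12994 (PLXNB2) per the authors' deposited table. PLXNB2, a receptor of class 4 semaphorins, had the highest count of all guidance genes and stood at −0.78 (SE 0.06, adjusted p 4.3e-42) per the authors' deposited table. Its implied level was 16434 in DMSO and 9554 in isoginkgetin. Per kilobase it made up 53.9% of the summed plexin mean count. PLXND1, the receptor that SEMA3E binds without a neuropilin, was at −1.08 (SE 0.06, adjusted p 1.41e-65) per the authors' deposited table, with implied levels of 6892 and 3262. PLXNB1, which binds SEMA4D and can associate with the kinases MET and ERBB2, was at −0.43 (SE 0.06) per the authors' deposited table. The lowest plexins were less abundant ones. PLXNC1, the receptor of SEMA7A, was at −1.38 (SE 0.16) and PLXNA2, a receptor of class 3 and class 6 semaphorins, at −1.26 (SE 0.12) per the authors' deposited table. PLXNA3 was at −0.38 (SE 0.12) and PLXNA1 at −0.19 (SE 0.08), both partners of neuropilins, per the authors' deposited table. PLXNA1 and PLXNA2 therefore differed in size, 1.14-fold against 2.39-fold lower, though both belong to class A.

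PLXNB3, a receptor of SEMA5A, was the exception at 0.48 (SE 0.14, adjusted p 0.00199) per the authors' deposited table. It shares 1432 exon bases with SRPK3 on the same strand in GENCODE 29, so its reads are uncertain. NRP2, the co-receptor for class 3 semaphorins and VEGF-C, was at −0.38 (SE 0.15) per the authors' deposited table. NRP2 shares 147 exon bases with an antisense transcript. The implied sum over the 8 plexins was 4115 counts per kilobase in DMSO and 2531 in isoginkgetin, a decrease of 38.5%, or an increase of 62.6% if the order was turned. It covers only plexins past the threshold of this same comparison and leaves out the 1 of 9 that was not analysed here.

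**Figure D3:**
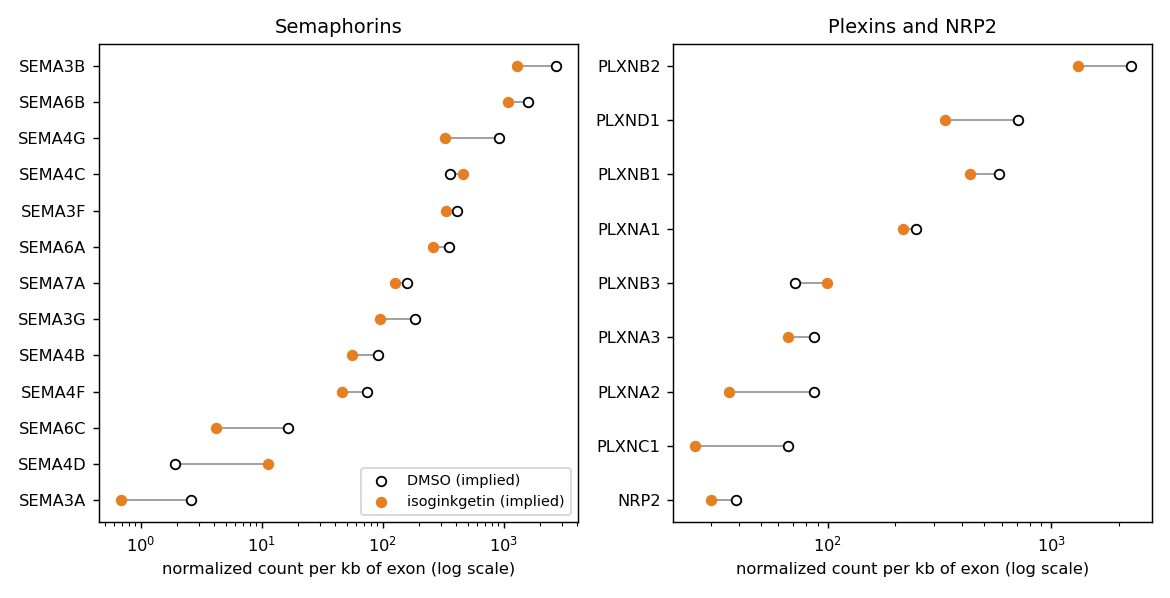
Levels of the 13 semaphorins (left) and of the 8 plexins and NRP2 (right) per kilobase of exon (x axis, log scale), as implied for DMSO (open) and isoginkgetin (orange) by the deposited mean and fold change. SEMA3B and PLXNB2 are the most abundant and shift to the left, and only SEMA4C, SEMA4D and PLXNB3 shift to the right.

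Ephrins and Eph receptors were few and split. EPHA1, the founding Eph receptor kinase, was lowest at −1.56 (SE 0.21, adjusted p 3.26e-13) per the authors' deposited table, with implied levels of 355.9 in DMSO and 120.7 in isoginkgetin. EPHB4, the ephrin-B2 receptor of veins and many epithelial tumours, had the highest count of the group, 4219, and was at −0.31 (SE 0.07) per the authors' deposited table. SLC12A9, whose gene shares 69 exon bases with EPHB4 on the other strand, was at −0.32 per the authors' deposited table. Of the ligands, EFNA2, which is lipid-anchored, was at −0.37 (SE 0.13) and EFNB1, which spans the membrane, at 0.46 (SE 0.13) per the authors' deposited table. EPHA8 was at 5.66 (SE 2.71, mean normalized count 8.42) per the authors' deposited table. With such a count and SE, no size is read from its fold.

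Netrin and slit genes went both ways, 4 lower and 2 higher. NTN4, a netrin of basement membranes that binds laminin, was at −1.52 (SE 0.20, adjusted p 7.48e-14) per the authors' deposited table, with implied levels of 406.6 and 141.4. NEO1, a relative of DCC that binds netrins and RGM proteins and takes part in hepcidin control in liver, was at −1.05 (SE 0.15) per the authors' deposited table, with implied levels of 707.3 and 342.0. UNC5B, a repulsive netrin receptor, was higher at 1.59 (SE 0.34, mean normalized count 98.5) per the authors' deposited table. The 2 netrin receptor genes among the members thus differed in direction, though UNC5B stood at 14.4 mean counts per kilobase and NEO1 at 64.6. The other 3 UNC5 receptors were not analysed here, so nothing is read about receptor types. ROBO1, the more abundant of the 2 ROBO genes with a row, had a mean normalized count of 6304 per the authors' deposited table. ROBO1 changed least of all members, at −0.15 (SE 0.06, adjusted p 0.0148) per the authors' deposited table. Its ligand gene SLIT1 was at 1.97 (SE 0.58, mean normalized count 36.7) per the authors' deposited table. In GENCODE 29 SLIT1 shares 216 exon bases with a read-through gene on the same strand. ROBO4, known from endothelium, was at −1.79 (SE 0.73, mean normalized count 24.5) per the authors' deposited table, and shares 744 exon bases with a transcript on the other strand.

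The remaining rows that match by name only were UNC50 at 0.40 (SE 0.11) and UNC5CL at −1.28 (SE 0.37) per the authors' deposited table. UNC5CL shares 747 exon bases with OARD1, which was at −0.43 per the authors' deposited table.

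Ligands were set beside receptors or co-receptors of their own signalling family, for 14 pairs with both genes in the table. Direct binding is not claimed for each pair, such as SEMA3A with PLXNA1 or EFNB1 with EPHB4. Both genes were lower in 8 pairs, among them SEMA4G with PLXNB2, SEMA3G with NRP2, SEMA7A with PLXNC1 and NTN4 with NEO1. In 5 pairs the ligand was higher and the receptor lower: SEMA4C with PLXNB2, SEMA4D with PLXNB1 and with PLXNB2, EFNB1 with EPHB4, and SLIT1 with ROBO1. The other pair was EFNA2, lower, with EPHA8, higher. No pair had both genes higher. UNC5B, which was higher, was in no pair, because NTN4 was set only beside NEO1. Taken singly, 13 of 17 guidance ligands and 13 of 16 guidance receptors were lower, so nothing about pairing is read from these counts. Several pairs share a gene, so they are not independent, and no protein was measured.

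**Figure D4:**
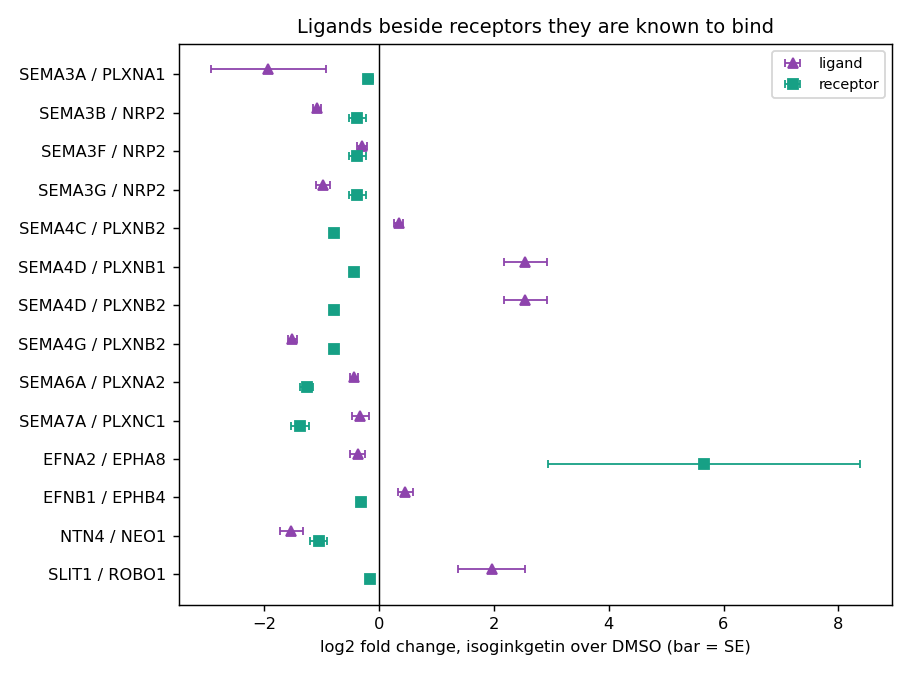
Log2 fold change with SE (x axis) of ligands (triangles) and of the receptors set beside them (squares) for the 14 pairs, from the authors' deposited table. Direct binding is not claimed for each pair, although the title in the picture speaks of receptors that the ligands are known to bind. Receptors lie left of 0 in each of these pairs but EFNA2 with EPHA8 (UNC5B, which was higher, is not among them), while the ligands SEMA4C, SEMA4D, EFNB1 and SLIT1 lie right of 0.

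Genes that relay guidance signals inside the cell, or bind the same ligands and receptors, were taken from a list of 109 by role. Of these 58 had a row, 40 lower and 18 higher, with a median log2 fold change of −0.38. Having a row again means passing the threshold, as 43.6% of all genes tested did (21.1% lower, 22.4% higher), and the lists with 15 of 37 and 7 of 17 genes in the table were close to that share. Semaphorin and plexin effectors had 18 of 30 listed genes in the table, 15 lower and 3 higher. DPYSL2, a collapsin response mediator, was at −1.12 (SE 0.07) and ERBB2 at −1.08 (SE 0.08) per the authors' deposited table. Ephrin and Eph effectors had 18 of 25 in the table, 11 lower and 7 higher. NGEF, the exchange factor ephexin that EphA receptors bind, was the lowest of all listed genes at −2.35 (SE 0.18, adjusted p 2.4e-39), and the adaptor GRB7 was at −1.03 (SE 0.09) per the authors' deposited table. Netrin and slit partners had 15 of 37 in the table, 11 lower and 4 higher. DOCK1, an exchange factor that acts after DCC, was at −1.29 (SE 0.09) and FLRT2, a membrane ligand of UNC5 receptors, at −1.21 (SE 0.12) per the authors' deposited table. DAPK1, a kinase that UNC5 receptors engage, was at −1.002 (SE 0.11) and the slit-binding proteoglycan GPC1 at −0.997 (SE 0.13) per the authors' deposited table. RGMB, a ligand of neogenin, was higher at 1.12 (SE 0.18) per the authors' deposited table, opposite to its receptor NEO1. The shared cytoskeletal relays had 7 of 17 in the table, 4 higher and 3 lower. PAK6, a kinase with a mean normalized count of 11.2, stood at 6.33 with an SE of 2.69 per the authors' deposited table, and its size is not read.

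**Figure D5:**
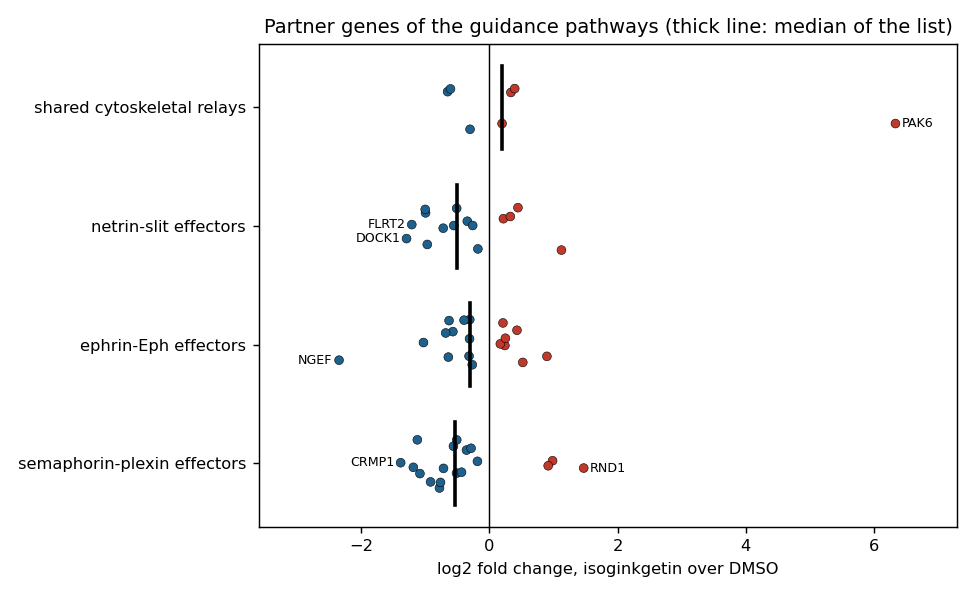
Log2 fold change (x axis) of 58 partner genes in 4 lists (rows), from the authors' deposited table, with the median of each list as a thick line. The medians of the 3 lists of effectors lie between −0.54 and −0.31, and that of the shared relays at 0.20.

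Exon length went with direction over the whole table, and its part in the result was not tested. Guidance genes were long, with a median of 7.01 kb of exon against 5.09 kb for the 89.5% of table genes with a length in GENCODE 29. By quartile of that length, from short to long, 40.8%, 49.2%, 49.5% and 56.8% of the genes in the table were lower. Guidance genes were lower in 1 of 1, 6 of 7, 8 of 12 and 11 of 13 cases in the same quartiles. Of 10 hepatocyte markers, 9 were in the table with mean normalized counts from 442.3 to 58728, and 8 of these 9 were lower. APOA2 was higher, at 0.54 per the authors' deposited table. Of all genes tested, 43.6% were in the table, 21.1% lower and 22.4% higher, and nothing is read from the number of markers with a row. Of 6 endothelial markers only PECAM1 (mean normalized count 128.9, −0.68) and CLDN5 (14.2, −3.15) had values per the authors' deposited table. The neuron list had 1 of 6 markers in the table, the fibroblast and stellate list 2 of 6 and the leukocyte list 1 of 6, all lower. That leukocyte marker was the lysozyme gene LYZ, with a mean normalized count of 15328 per the authors' deposited table. All libraries are labelled as the HepG2 line, so these markers are not read as numbers of other cell types. A change in the make-up of the line and less RNA per cell cannot be told apart in such bulk samples.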

How the data were processed

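Per the submitters' processing notes, reads were handled with STAR 2.7.0 and featureCounts, and the builds hg19 and mm10 are named without their roles. The table the authors deposited is a DESeq result by its name and columns; the version, model, annotation and order of the groups are not stated in the sources used here. Per the file headers, the authors made 3 kinds of value for each gene: a scaled mean count (a signal over the 4 libraries), a fold change with SE on the log2 scale, and a p-value raw and adjusted.

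Members and lists were chosen with earlier results of these data known. Every member was named, and of the partner genes the 10 with the largest absolute change at a mean normalized count of 100 or more, of which 1 is not reported here, and PAK6, named after its values were seen. The number of genes tested was recovered as the median of adjusted p times rank over p, checked on simulated data. Exon lengths and overlaps come from GENCODE 29 and starts from RefSeq, neither being the authors' annotation. The absolute fold change over its SE fell short of the normal deviate of the p-value at low counts (median ratio 0.757 under 100, 0.983 at 100 or more), so fold changes look shrunken there. Values per library were not held, so the planned count model was not fitted. Scripts used Python 3.11.15, pandas 2.3.3 and scipy 1.17.1.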

Additional observations from a re-analysis of the deposited data

How the results depend on the processing

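No paired analysis was possible because the table holds no value per library, and for the same reason leaving out a replicate was not run. The medians stayed negative under all settings tried. With Bonferroni adjustment 15 members were lower and 2 higher (median −1.05) against 11% and 10.7% of all tested genes, with 26 partner genes lower and 8 higher. At 1.5-fold or more 17 members were lower and 4 higher (median −1.08; all tested genes 14% and 12.2%), with 21 partner genes lower and 6 higher. At 2-fold or more 13 members were lower and 4 higher (median −1.28), with 9 partner genes lower and 3 higher. At a mean normalized count of 100 or more, 23 members were lower and 4 higher (all tested genes 17.7% and 17.6%). An adjusted p under 0.001 gave a median of −0.78, with 19 members lower and 6 higher (all tested genes 14.7% and 14.5%). Centring on the median of the table, 0.21, gave a median of −0.70, with 28 lower and 8 higher. Stricter thresholds leave fewer genes and larger changes by construction. Members come from the 8727 genes in the table, a closer background than all tested genes. Of these genes, 2210 were lower and 2141 higher with Bonferroni adjustment, and 2809 and 2434 at 1.5-fold or more. At 100 counts or more they were 3551 and 3531, and at an adjusted p under 0.001 they were 2940 and 2900. At 2-fold or more 17.1% were lower and 14.4% higher. Without the 3 rows that match by name only, 26 were lower and 7 higher. SEs of 0.34 to 2.71 limit the 7 guidance genes under 100 counts.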
